A study of Mus musculus with 5 samples.

Results

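Bulk RNA sequencing of the tumor-bearing right hemisphere was used to describe 28 genes for subunits of ionotropic glutamate and GABA-A receptors, out of 55573 genes in the count tables. The members were taken from a list of gene symbols and matched by Ensembl identifier, and all 28 were found. They are 16 glutamate receptor subunits (4 AMPA, 6 NMDA, 5 kainate and 1 delta subunit) and 12 GABA-A receptor subunits, and the list does not hold every subunit of these families. All mice were C57BL/6 females, inoculated at 7 to 8 weeks of age with GL261 glioma cells carrying a luciferase/mKate2 vector in the right caudate nucleus-putamen. The vehicle group (3 libraries) received a dilution buffer, and the UMBO group (2 libraries) received ultrasound-mediated blood-brain barrier opening with microbubbles. Treatment was given on days 21 and 24, and tissue was taken 24 h after the last session. The study's methods describe more mice than the 5 analysed here. GL261 is a single transplanted mouse line, and each library holds tumor, neurons, glia, vessels and immune cells together, so fewer neurons and less receptor RNA per neuron cannot be told apart. The labels number the libraries of a group without saying which animal each came from, so p-values measure the spread between these libraries.

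Glutamate receptors of the AMPA, NMDA and kainate types are cation channels assembled from several subunits, and they carry fast excitatory transmission between neurons. GABA-A receptors are chloride channels assembled around a central pore, and they carry fast inhibition. Which subunits are joined sets where a receptor sits, how fast it closes and which drugs bind it. Most of these genes are used mainly by neurons, while some, such as Gabrg1, are also known from glia.

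Total counts lay between 59736771 and 86164159 per library. The 28 genes took 0.348 to 0.453% of them with vehicle and, with UMBO, 0.385% in replicate 1 and 0.195% in replicate 2. UMBO replicate 2 stood apart from the other libraries over all genes. On the largest component of variation, which held 87.5% of the variance of log2 CPM, it lay at 81.9 and the other 4 libraries between -42.3 and 5.98. The counts and median of the members, and the fold changes of some members, are therefore also given without it. The fold changes of the other synaptic genes and the marker results are given with it only. Every pair of libraries differed far beyond counting noise, with a chi-square per gene of 58.1 to 727. The tissue label matched the markers fixed for brain. The 16 pan-neuronal genes summed to 10180 to 13200 CPM (counts per 1000000 after TMM scaling) with vehicle, 10210 in UMBO replicate 1 and 6448 in UMBO replicate 2, and no gene of the list was at 0 in any library.

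Per unit of transcript length, the level of the 28 genes spanned more than 3 orders of magnitude. The measure was TPM (counts divided by the exonic length of each gene and scaled to a sum of 1000000 per library). With vehicle, Gria1 was highest at 197 ± 42.7 TPM (SD, n = 3). Grin1 at 122 ± 23.7, Grik5 at 116 ± 11.9 and Gria2 at 116 ± 25.9 TPM followed, and these 3 neighbors differed by less than their SD. Gabra3, at 94.4 ± 19.3 TPM, and Gabra2, at 77.7 ± 13.7 TPM, were the highest GABA-A subunits of the list and differed by less than the SD of Gabra3. The lowest subunits were Gabrq at 7.70 ± 4.97, Gabre at 3.61 ± 2.35 and Gabra6 at 0.0569 ± 0.0431 TPM. With UMBO, Gria1 was again highest, at 155 ± 110 TPM (SD, n = 2), and Gabra6 lowest, at 0.0719 ± 0.0816 TPM.

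**Figure D1:**
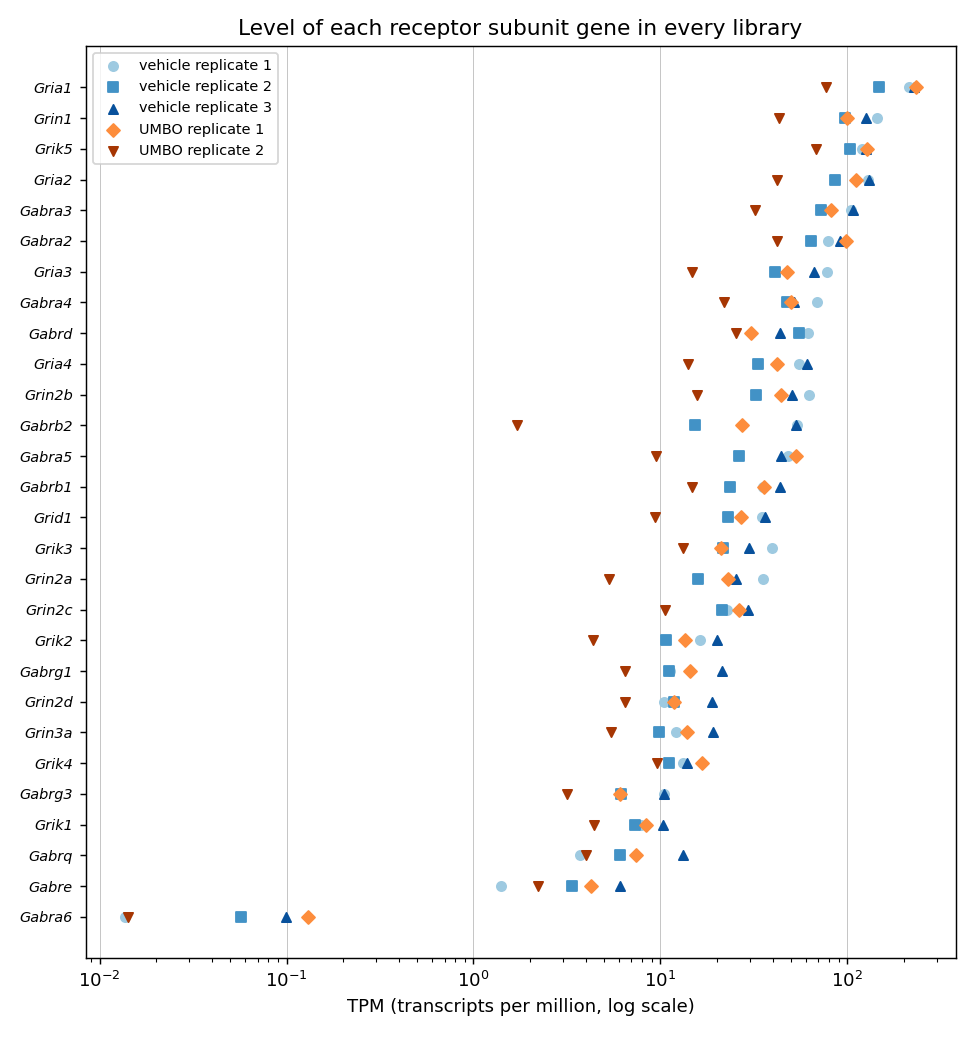
Level of each of the 28 receptor subunit genes as TPM on a log axis, with 1 point per library and genes ordered by the vehicle mean. UMBO replicate 2 is the lowest library for most genes, and Gabra6 lies below 0.2 TPM in every library.

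Genes were compared between UMBO and vehicle with edgeR's quasi-likelihood test over 23592 genes with enough counts. Of the 28 members 27 passed the filter on low counts and Gabra6 did not. No member reached an adjusted p under 0.05 with edgeR, and the smallest adjusted p of a member was 0.497, which is also the smallest over all genes. The percentage of all genes called at this threshold was 0%, against 0.166% with the DESeq2 Wald test, which also called no member; 5 members, and 6.77% of all genes, had an unadjusted p under 0.05 by DESeq2. At an unadjusted p under 0.05 in edgeR there were 3 members, Gabrd, Gabrg3 and Grik3, all lower with UMBO, where 7.37% of all genes were called, 2.06% lower and 5.30% higher. The fitted log2 fold change was below 0 for 26 of the 27 members, against 49.1% of all genes, and above 0 for Grik4 alone, against 50.9%. The median was -0.57 over the members and 0.01 over all genes. In 6 members, Grin1, Grik1, Grik3, Gabra3, Gabrg3 and Gabrd, both UMBO libraries lay below every vehicle library, and in 0 members above. Over all genes 11.4% lay below and 11.5% above.

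Most of this difference lay in UMBO replicate 2. In that library 25 of the 27 members were below every vehicle library, as were 41.6% of all genes, and the median member stood at 45.0% of its vehicle mean. In UMBO replicate 1 the median was 87.3%, with 6 members below, 4 above and 17 inside the vehicle range. These were 22.2% of the tested members below and 14.8% above, against 17.9% and 18.6% of all genes. Vehicle replicate 2, at a median of 83.7%, was thus below UMBO replicate 1. Without UMBO replicate 2 the median log2 fold change of the members was -0.19, 19 were lower and 8 higher, and 1 had an unadjusted p under 0.05 (1.86% of all genes). Without UMBO replicate 1 the median was -1.18, with 24 members at an unadjusted p under 0.05 (41.0% of all genes) and 16 at an adjusted p under 0.05 in edgeR (18.3% of all genes). That fit sets a lone UMBO library against 3 vehicle libraries and takes its spread from the vehicle libraries. Leaving out vehicle replicate 1 or vehicle replicate 3 left 1 member at an unadjusted p under 0.05, and 1.28% or 1.88% of all genes.

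**Figure D2:**
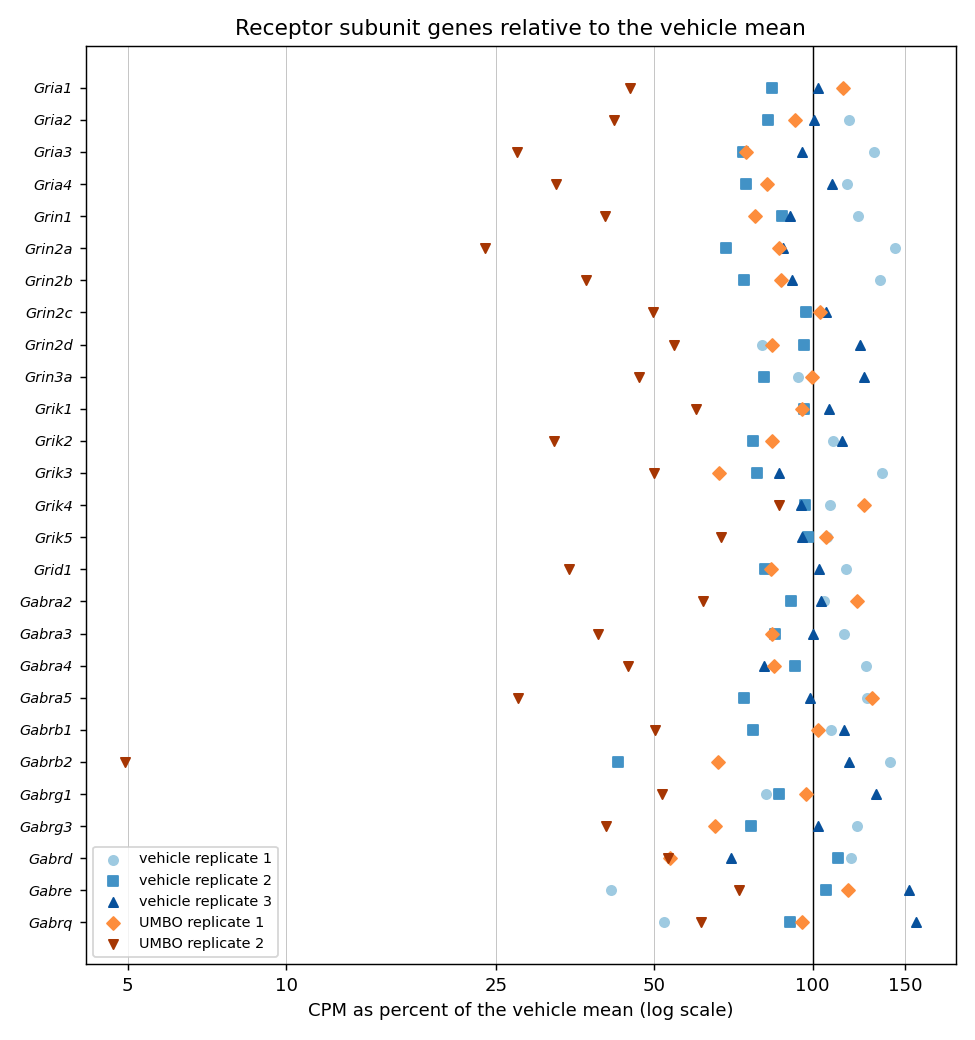
CPM of each tested member in every library as percent of its vehicle mean (vertical line at 100), on a log axis, with 1 point per library. UMBO replicate 2 lies left of every vehicle library for 25 of 27 genes, whereas UMBO replicate 1 lies inside the vehicle range for 17; Gabrb2 is at 4.94% in UMBO replicate 2.

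AMPA receptors carry the fast component of excitatory synaptic currents, and their 4 subunits had log2 fold changes between -0.97 and -0.33. Gria2 encodes the subunit that, in its edited form, makes the channel nearly impermeable to calcium. It was at 790, 556 and 678 CPM in vehicle replicates 1 to 3 and at 624 and 284 CPM in UMBO replicates 1 and 2. UMBO replicate 1 was inside the vehicle range and UMBO replicate 2 below it. The fitted change was -0.57 on the log2 scale (SE, the standard error, 0.394), and edgeR gave it an adjusted p of 0.507. Without UMBO replicate 2 the fitted change of Gria2 was -0.11. Gria1, its main partner in forebrain principal neurons, was at 509, 373 and 457 CPM with vehicle and at 510.1 and 201 CPM with UMBO. Its direction rested on UMBO replicate 2, since the log2 fold change was -0.33 (SE 0.423) with that library and 0.20 without it. Gria3 was at 299, 169 and 218 CPM with vehicle and at 171 and 62.8 CPM with UMBO. UMBO replicate 1 was at the lower edge of the vehicle range and UMBO replicate 2 below it. The log2 fold change of -0.97 (SE 0.481) was the second lowest of the list, and it was -0.42 without UMBO replicate 2. Gria4, known from fast-spiking interneurons among other cells, was at 136, 87.6 and 128 CPM with vehicle and at 95.9 and 38.2 CPM with UMBO.

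NMDA receptors need both glutamate and a co-agonist to open and admit calcium, and all 6 of their genes had a log2 fold change below 0, between -0.86 and -0.38. Grin1, the obligatory subunit of every NMDA receptor, was at 546, 392 and 405 CPM with vehicle and at 348 and 181 CPM with UMBO. The groups did not overlap. Its log2 fold change was -0.76 (SE 0.355; adjusted p 0.497 in edgeR) and lay between -1.34 and -0.36 as libraries were left out in turn. The exons of Grin1 overlap Grin1os on the opposite strand, and reads of the pair cannot be told apart if the counting ignored strand. The same holds for Grin2b, Grin2c, Grin2d, Gabra4, Gabrb1 and Gabra5, whose exons also overlap a gene on the opposite strand.

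Grin2a and Grin2b encode the glutamate-binding subunits that predominate in the adult forebrain, Grin2b being the more abundant early in development. Grin2a was at 249, 119 and 152 CPM with vehicle and at 149.6 and 41.2 CPM with UMBO. Grin2b was at 610.1, 336 and 415 CPM with vehicle and at 396 and 168 CPM with UMBO. In both genes vehicle replicate 1 was high, UMBO replicate 1 lay inside the vehicle range and UMBO replicate 2 below it. The log2 ratio of Grin2a to Grin2b in CPM was -1.29, -1.50 and -1.45 with vehicle and with UMBO -1.40 in replicate 1 and -2.03 in replicate 2. The difference between the groups was -0.30 (2-sided exact permutation test, p = 0.4, or 0.6 adjusted over 3 ratios). With 10 groupings of the 5 libraries the smallest p this test can give is 0.1. Without UMBO replicate 2 the difference was 0.011. Grin2c, used by cerebellar granule cells and by astrocytes, was at 44.8, 45.1 and 49.2 CPM with vehicle and at 48.0 and 23.0 CPM with UMBO. Its log2 fold change was -0.38 (SE 0.317) and became 0.05 without UMBO replicate 2. Grin2d lay between 18.5 and 41.8 CPM and Grin3a between 29.0 and 77.5 CPM over all libraries, and edgeR's estimates were -0.53 (SE 0.278) for Grin2d and -0.45 (SE 0.366) for Grin3a on the log2 scale.

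Kainate receptors act on both sides of the synapse, and their 5 genes had log2 fold changes from -0.78 to 0.08. Grik3, a low-affinity subunit, was at 139.5, 80.6 and 88.7 CPM with vehicle and at 68.3 and 51.5 CPM with UMBO. Both UMBO libraries lay below the vehicle libraries. The log2 fold change was -0.78 (SE 0.302), with an unadjusted p of 0.0414 and an adjusted p of 0.497 in edgeR, and it was -0.59 without UMBO replicate 2 and -0.50 without vehicle replicate 1. The unadjusted p no longer passed 0.05 without vehicle replicate 1, vehicle replicate 3 or UMBO replicate 2. Grik4 and Grik5 encode the high-affinity subunits, which form channels only together with Grik1, Grik2 or Grik3. Grik4 was at 31.0, 27.7 and 27.3 CPM with vehicle and at 36.0 and 24.8 CPM with UMBO, so that UMBO replicates 1 and 2 were on opposite sides of the vehicle range. Its log2 fold change was 0.08 (SE 0.211). Grik5 was at 242, 222 and 216 CPM with vehicle and at 239.9 and 152 CPM with UMBO. The log2 fold change of Grik5 was -0.21 (SE 0.256) and became 0.09 without UMBO replicate 2. For Grik1 and Grik2, which can form channels alone, the estimates were -0.36 (SE 0.245) and -0.78 (SE 0.427) on the log2 scale. Grik1 was at 20.6, 20.6 and 23.0 CPM with vehicle and at 20.5 and 12.9 CPM with UMBO, so that UMBO replicate 1 was just below the vehicle libraries and UMBO replicate 2 well below them. Grid1, a delta subunit that binds synaptic organizers and is not gated by glutamate like its relatives, was at 81.2, 56.9 and 72.1 CPM with vehicle and at 58.4 and 24.2 CPM with UMBO.

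Among the GABA-A receptors, the alpha subunits set the benzodiazepine site and the location of the receptor. Gabra2, found at synapses on the axon initial segment among other places, was at 235, 203 and 231 CPM with vehicle, and at 272 and 138 CPM with UMBO. The UMBO libraries were the highest and the lowest of the 5. The log2 fold change was -0.12 (SE 0.319) and became 0.29 without UMBO replicate 2. Gabra3 was at 159.9, 118 and 139.7 CPM with vehicle and at 117 and 54.5 CPM with UMBO. Its groups were separated by less than 2 CPM, and edgeR gave -0.70 (SE 0.355) on the log2 scale with an adjusted p of 0.497. Gabra4, the alpha subunit of extrasynaptic receptors in the striatum, thalamus and hippocampus, had an estimate of -0.63 (SE 0.346), with UMBO replicate 1 at 109.6 CPM inside the vehicle range of 105 to 164 CPM and UMBO replicate 2 at 57.7. Gabra5, an extrasynaptic subunit best known from the hippocampus, was at 56.1, 32.7 and 43.7 CPM with vehicle and at 57.2 and 12.1 CPM with UMBO. Its log2 fold change was -0.35 (SE 0.621) and became 0.38 without UMBO replicate 2. Gabra6, whose use is largely limited to cerebellar granule cells, had 1, 4 and 7 reads in the vehicle libraries and 10 and 1 reads in the UMBO libraries. No fold is given at these counts. The 7 cerebellar markers summed to 39.9 to 61.7 CPM over all libraries, with Cbln1 at 16.9 to 32.5 CPM.

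The beta subunits form the GABA site together with alpha subunits. Gabrb2 showed the widest spread of the 27 tested members. It was at 134, 40.7 and 112 CPM with vehicle, 63.1 in UMBO replicate 1 and 4.72 in UMBO replicate 2, where it stood at 4.94% of the vehicle mean. UMBO replicate 1 lay between vehicle replicates 2 and 3, and only UMBO replicate 2 was below the vehicle range. The log2 fold change of -1.49 had an SE of 1.06 (adjusted p 0.511 by edgeR) and ranged from -4.37 without UMBO replicate 1 to -0.59 without UMBO replicate 2. Gabrb1 was at 191, 136 and 202 CPM with vehicle and at 179.8 and 88.5 CPM with UMBO, a log2 fold change of -0.39 (SE 0.359) that was 0.03 without UMBO replicate 2.

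Gamma subunits anchor the receptor at synapses. Gabrg3 was at 48.9, 30.7 and 41.3 CPM with vehicle and at 26.3 and 16.3 CPM with UMBO, and the groups did not overlap. Its log2 fold change was -0.92 (SE 0.3), with an unadjusted p of 0.0223 and an adjusted p of 0.497 in edgeR, and it was -0.61 without UMBO replicate 2. Here too the unadjusted p did not pass without that library or without vehicle replicate 1 or 3. Gabrg1 was at 34.8, 36.7 and 56.1 CPM with vehicle and at 41.3 and 22.0 CPM with UMBO, so UMBO replicate 1 was inside the vehicle range.

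Gabrd encodes the delta subunit, which replaces gamma in extrasynaptic receptors that carry tonic inhibition, and it had the smallest p of the list. It was at 69.8, 66.1 and 41.5 CPM with vehicle and at 31.6 and 31.4 CPM with UMBO. Both UMBO libraries were below the lowest vehicle library and close to each other, at 53.5% and 53.1% of the vehicle mean. The log2 fold change was -0.91 (SE 0.263), with an unadjusted p of 0.0137 and an adjusted p of 0.497 in edgeR; DESeq2 gave an adjusted p of 0.277. It was -0.90 without UMBO replicate 2 and -0.94 without UMBO replicate 1, and it ranged from -1.11 to -0.77 as each library was left out. Gabrd was the only tested member with an unadjusted p under 0.05 in each of these 5 fits. Scaled to the pan-neuronal genes in place of TMM, its groups overlapped and the log2 fold change was -0.40 (SE 0.326). The 7 striatal markers moved in the same order of groups. They summed to 1177, 1042 and 683 CPM with vehicle and to 519 and 623 CPM with UMBO, with none at 0. Gabrd and the striatal sum were both lowest among the vehicle libraries in replicate 3. That was not particular to striatal markers. Replicate 3 was also the lowest vehicle library for markers of cortex and hippocampus excitatory neurons (255 CPM) and for the pan-neuronal genes (10180 CPM). The part of striatal tissue in the Gabrd result was not tested.

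Gabre and Gabrq, subunits known from the hypothalamus and brainstem, varied more among the vehicle libraries than between the groups. Gabre was at 2.59, 6.66 and 9.56 CPM with vehicle and at 7.32 and 4.55 CPM with UMBO. Gabrq was at 7.84, 13.6 and 23.6 CPM with vehicle and at 14.3 and 9.24 CPM with UMBO. For both genes the UMBO libraries lay inside the vehicle range, and edgeR's estimates were -0.08 (SE 0.559) for Gabre and -0.35 (SE 0.484) for Gabrq. The 7 hypothalamic markers also spread among the vehicle libraries, with sums of 44.1, 167 and 114 CPM, and were at 60.8 and 177 CPM in the UMBO libraries.

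**Figure D3:**
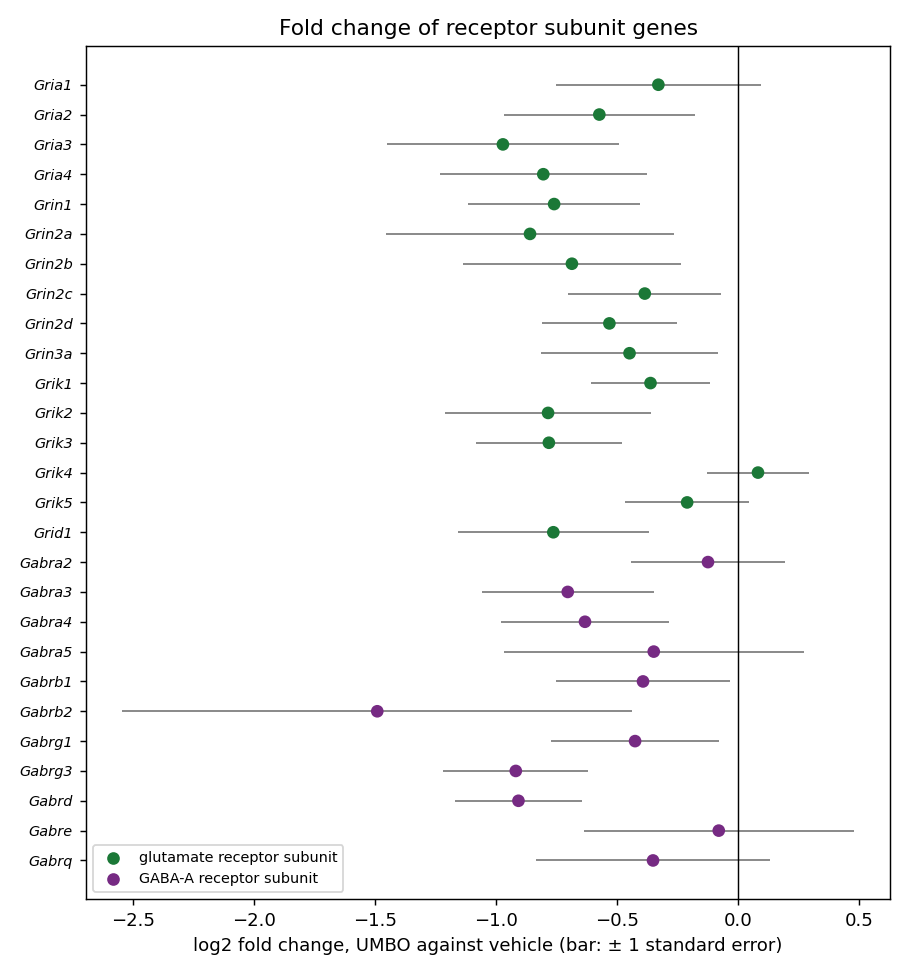
Log2 fold change of UMBO against vehicle from edgeR for the 27 tested members, with bars of ± 1 standard error, in green for glutamate and purple for GABA-A receptor subunits. All points except Grik4 lie below 0, Gabrb2 has the longest bar, and no gene passed an adjusted p of 0.05.

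Within a receptor type, the make-up of the subunit transcripts was compared by TPM, so that the shares do not depend on how a library is scaled. Gria2 made 27.2, 27.8 and 27.0% of the summed TPM of the 4 AMPA subunits with vehicle and 25.6 and 28.6% with UMBO. The difference of -0.28 percentage points lay within the SD of each group, and a 2-sided exact permutation test gave p = 0.9, also 0.9 adjusted over 3 ratios. Gria1 took 45.1, 48.0 and 46.8% with vehicle and 53.7 and 52.0% with UMBO. Gria3 took 16.2, 13.3 and 13.7% with vehicle and 11.02 and 9.97% with UMBO, and Gria4 took 10.8 to 12.5% with vehicle and 9.68 and 9.48% with UMBO. For these 3 subunits the groups did not overlap; they were singled out after their values were seen, their shares depend on each other, and no test was made.

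The balance between the glutamate and the GABA-A members varied little by TPM. The log2 ratio of their summed TPM was 1.06, 1.03 and 1.03 with vehicle and 1.08 and 1.07 with UMBO, a difference of 0.04 (2-sided exact permutation test, p = 0.2, or 0.6 adjusted over 3 ratios). By CPM, which is not divided by length, the difference had the opposite sign, at -0.084. The TPM value in UMBO replicate 2 was thus close to the others although its summed CPM was 41.6% of the vehicle mean for the glutamate and 45.3% for the GABA-A members. Between the 2 beta subunits the balance varied most. Gabrb2 made 60.4, 39.5 and 54.7% of their TPM with vehicle, 43.3% in UMBO replicate 1 and 10.4% in UMBO replicate 2. Grik5 made 60.8 to 66.9% of the kainate subunits with vehicle and 68.3 and 68.2% with UMBO, again chosen after the values were seen.

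**Figure D4:**
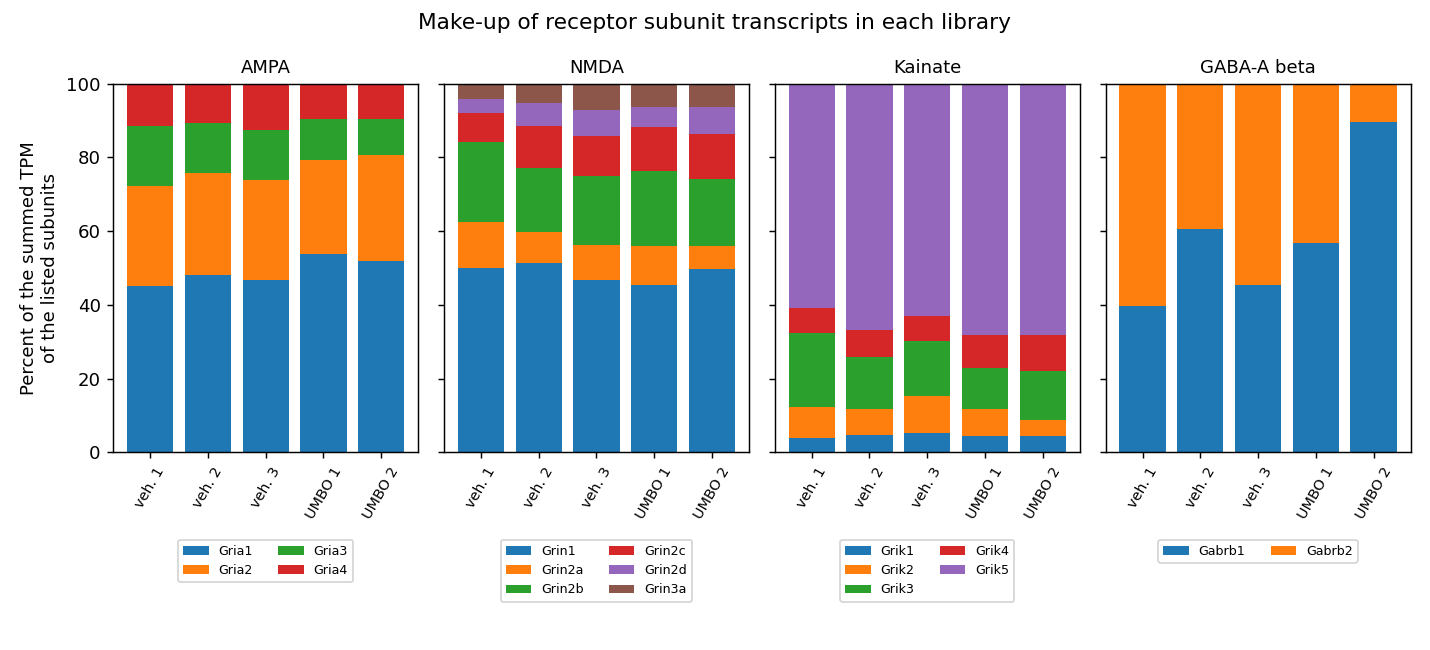
Stacked bars of the percent of summed TPM that each listed subunit took in each library, for AMPA, NMDA, kainate and GABA-A beta subunits. The Gria1 share is higher in both UMBO libraries than in the vehicle libraries, and Gabrb2 takes 10.4% of the beta subunits in UMBO replicate 2.

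The rule did not use position, but 11 of the 12 GABA-A genes lay within 1000000 bases of another member, on 4 chromosomes of GRCm38. None of the glutamate receptor genes had such a neighbor. Gabrg1 (chromosome 5, 70751047 to 70842617), Gabra2 (70957597 to 71095849), Gabra4 (71569749 to 71658308) and Gabrb1 (71658113 to 72149037) form a run on chromosome 5, with log2 fold changes of -0.42, -0.12, -0.63 and -0.39. Gabra4 and Gabrb1 start head to head, and their exons share 46 bases on opposite strands. On chromosome 7, Gabrg3 (56716465 to 57387188) and Gabra5 (57407672 to 57510059) lie 20483 bases apart, with log2 fold changes of -0.92 and -0.35. Chromosome 11 holds Gabra6 (42306437 to 42321072) beside Gabrb2 (42419757 to 42629028), the former nearly without reads. On the X chromosome Gabre, Gabra3 and Gabrq lie in a row, with log2 fold changes of -0.08, -0.70 and -0.35. Differences between neighbors were not tested. No stretch longer than 87 bases was identical between the transcripts of any 2 members, the longest being between Gria2 and Gabra2.

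RefSeq promoter sequences of GRCm38.p6 were at hand for 20 of the 28 members, with 24 start sites. The 250 bases before the start are shown for 4 members that differ in behavior: Grin1 and Grik3, whose groups did not overlap, Gabra2, with the UMBO libraries on both sides of the vehicle range, and Gabra6, nearly without reads. Each is written 5′ to 3′ on the gene's own strand, and capitals mark a GC box.
Grin1, chr2:25319188-25319437, reverse strand: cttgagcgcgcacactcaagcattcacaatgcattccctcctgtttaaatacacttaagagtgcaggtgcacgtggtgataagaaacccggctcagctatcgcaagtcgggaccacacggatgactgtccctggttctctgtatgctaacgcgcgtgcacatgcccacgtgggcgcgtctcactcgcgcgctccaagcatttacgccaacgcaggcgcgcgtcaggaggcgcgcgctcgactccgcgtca
Grik3, chr4:125490446-125490695, forward strand: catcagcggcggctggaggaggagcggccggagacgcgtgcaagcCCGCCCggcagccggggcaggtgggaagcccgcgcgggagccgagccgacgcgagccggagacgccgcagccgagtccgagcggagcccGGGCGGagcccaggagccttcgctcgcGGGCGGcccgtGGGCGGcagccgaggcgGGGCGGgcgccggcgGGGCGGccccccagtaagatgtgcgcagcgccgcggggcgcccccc
Gabra2, chr5:71095850-71096099, reverse strand: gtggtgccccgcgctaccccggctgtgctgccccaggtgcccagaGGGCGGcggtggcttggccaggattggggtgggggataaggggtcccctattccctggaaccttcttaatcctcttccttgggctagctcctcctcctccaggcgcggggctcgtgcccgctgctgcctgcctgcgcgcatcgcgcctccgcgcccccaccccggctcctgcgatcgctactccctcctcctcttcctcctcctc
Gabra6, chr11:42321073-42321322, reverse strand: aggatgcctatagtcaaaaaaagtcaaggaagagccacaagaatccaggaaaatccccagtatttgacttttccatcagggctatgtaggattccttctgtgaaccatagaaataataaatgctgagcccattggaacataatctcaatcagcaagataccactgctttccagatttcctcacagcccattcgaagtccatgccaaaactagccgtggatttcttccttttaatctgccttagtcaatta
The GC box was searched as GGGCGG on both strands, with overlaps allowed. Grik3 held 6 copies in a window of 82.0% GC with 42 CpG dinucleotides, and Gabra2 held 1 copy at 70.0% GC. Grin1 and Gabra6 held none, at 58.8% and 40.8% GC, with 27 and 2 CpG dinucleotides. Of the 24 member windows 10 held a GC box (41.7%), against 32.7% of 32851 windows of the same length over all genes. A TATA box, searched as TATAAA on both strands, was in 3 member windows (12.5%) and in 12.4% of all windows. The 3 windows belong to 2 genes, Gabra3 and Gabrb2, and the Gabra3 windows overlap and share their site. Some member windows reach into annotated exons, that of Grin2d with all 250 bases, but the 4 shown do not. No member window held TGACGTCA (1.55% of all windows) or TTCAGCACC, the left part of the RE1 element (0.301% of all windows). Genes lower in both UMBO libraries were among those with and those without a GC box.

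The other genes of these synapses gave a similar count. Of 45 genes for auxiliary subunits, scaffolds, transmitter synthesis and transport and metabotropic receptors, 43 had a log2 fold change below 0, with a median of -0.58. By edgeR 5 passed an unadjusted p of 0.05, all of them lower, where 2.06% of all genes did, and 0 passed an adjusted p of 0.05 in either edgeR or DESeq2. Cacng3, a transmembrane AMPA receptor regulatory protein, was at 112, 80.9 and 79.6 CPM with vehicle and at 61.0 and 34.1 CPM with UMBO, a log2 fold change of -0.93 (SE 0.313). Gsg1l, another AMPA receptor auxiliary subunit, and Homer1, a postsynaptic scaffold whose short form is induced by activity, were estimated at -0.75 (SE 0.256) and -0.80 (SE 0.297) on that scale. Grm4 and Grm8, presynaptic metabotropic glutamate receptors, were at -0.60 (SE 0.212) and -0.98 (SE 0.385). Cacng2, the regulatory protein also called stargazin, followed at -0.44 (SE 0.192) and an unadjusted p of 0.0605 in edgeR. These 6 genes were named because they had the smallest p of the 45 in this same fit, a choice that favors separate groups. In all 6 both UMBO libraries lay below every vehicle library, and each had an adjusted p of 0.497 in edgeR. The groups were apart, with UMBO below, in 14 of the 45 genes, against 11.4% of all genes. In UMBO replicate 1 alone 14 of the 45 were below the vehicle range, against 17.9% of all genes, and in UMBO replicate 2 there were 43, against 41.6%.

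Marker lists of other cells also differed between the libraries, some of them in the direction opposite to the receptor genes. The 10 proliferation genes summed to 51.1, 111 and 37.0 CPM with vehicle and to 117 and 479 CPM with UMBO, and the 9 monocyte and macrophage genes to 33.5, 128 and 61.9 CPM with vehicle and to 116 and 507 CPM with UMBO. No gene of either list was at 0. Mki67, which marks dividing cells, was at 9.15, 14.2 and 6.37 CPM with vehicle and at 20.2 and 51.8 CPM with UMBO. UMBO replicate 2, lowest in receptor genes, was highest in both lists. Vehicle replicate 2 was the highest vehicle library in both and the lowest in summed receptor CPM (3432, against 4971 and 4141). The monocyte and macrophage sums ran in the reverse order of the receptor sums, but the proliferation sums did not. UMBO replicate 1 was above vehicle replicate 2 in proliferation genes (117 against 111 CPM) and also in receptor genes (3840 against 3432 CPM). Vehicle replicate 1 was above vehicle replicate 3 in both as well. Microglia markers were also higher with UMBO, where 6 genes summed to 361, 536 and 446 CPM with vehicle and to 686 and 814 CPM with UMBO, as were 6 oligodendrocyte progenitor genes, at 327, 418 and 364 CPM with vehicle and at 548 and 730.2 CPM with UMBO. The 7 markers of excitatory neurons of cortex and hippocampus all had a log2 fold change below 0, with sums of 564, 328 and 255 CPM with vehicle and 306 and 161 CPM with UMBO. UMBO replicate 1 was inside the vehicle range for these neurons and outside it for microglia and progenitors. The 6 astrocyte genes summed to 3485 to 4896 CPM with vehicle and to 4530 and 2077 CPM with UMBO. The summed CPM of the 6 oligodendrocyte genes stayed between 90.7 and 105% of its vehicle mean. None of these genes was at 0 in any library, and none passed an adjusted p of 0.05 in edgeR. At an unadjusted p under 0.05 in edgeR there were 10 proliferation, 4 monocyte and macrophage, 4 microglia and 3 progenitor genes. All of them were higher with UMBO, where 5.3% of all genes were called higher. In the excitatory neuron list 1 gene passed, lower, where 2.06% of all genes were called lower. No astrocyte or oligodendrocyte gene passed. The part of tumor, immune, glial and regional neuronal cells in the receptor values was not tested.

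The pan-neuronal genes themselves were lower in UMBO replicate 2, at a sum of 57.5% of the vehicle mean, and at 91.1% in UMBO replicate 1. The genes of this list did not move alike: in UMBO replicate 2 the median gene was at 68.0%, Snap25 at 34.9% and Syt1 at 30.2%, whereas Tubb3 was at 100.2%, Uchl1 at 109% and Celf4 at 97.6%. These 5 genes were singled out after their values were seen, and Snap25 and Syt1 weigh heavily in the sum used below. Set against them, the members held 37.7, 33.5 and 40.7 reads per 100 pan-neuronal reads with vehicle, 37.6 in UMBO replicate 1 and 27.5 in UMBO replicate 2. Scaling every library to the pan-neuronal counts moved the median over all genes from 0.01 to 0.48 on the log2 scale. The median of the members was then -0.20, a difference of -0.68 to that of all genes, with 20 members lower, 7 higher and 0 at an unadjusted p under 0.05 in edgeR. Under this scaling Gria1, Grik1, Grik4, Grik5, Gabra2, Gabre and Gabrq had a fold change above 0. Per 1000000 pan-neuronal reads Grik4 stood at 2349, 2706 and 2684 with vehicle and at 3526 and 3843 with UMBO. Gabrb2 stood at 10140, 3970 and 10990 with vehicle and at 6180 and 732 with UMBO. Relative to the neuronal genes the UMBO libraries were thus above the vehicle range for Grik4, and UMBO replicate 2 was still below it for Gabrb2. Grik4 and Gabrb2 were singled out after their values were seen. Under this scaling the groups did not overlap in 5 members, against 23.7% of all genes. Both UMBO libraries were above the vehicle libraries for Grik4 and Grik5, and below them for Grin1, Gabra3 and Gabrg3.

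**Figure D5:**
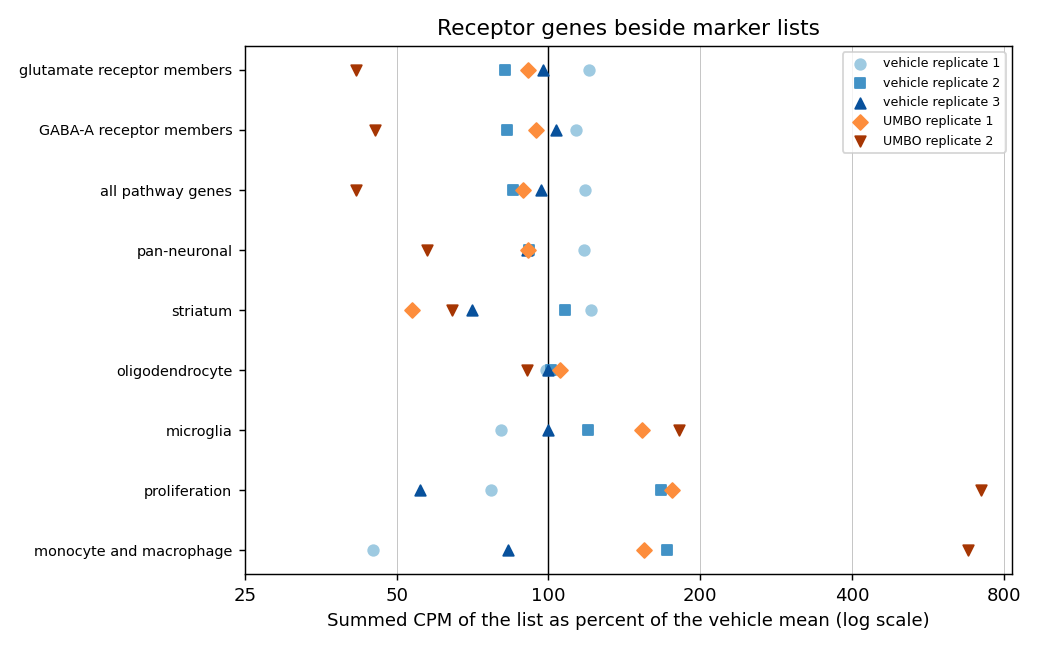
Summed CPM of the receptor members, of the other synaptic genes (all pathway genes) and of marker lists, as percent of the vehicle mean on a log axis, with 1 point per library. UMBO replicate 2 lies at 41.6% for the glutamate receptor members and at 720% for the proliferation genes, and UMBO replicate 1 lies inside the vehicle range for both receptor groups.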

How the data were processed

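RNA of 5 right hemispheres was analysed, 3 with vehicle and 2 with UMBO, grouped by the labels. The authors used STAR 2.7.2a and the GRCm38 genome, and the deposited values are whole-number counts per gene, 1 table for each library. The annotation release and strand setting are not given in the sources used here. Symbols, positions and exonic lengths came from GENCODE M21 on the same build, which named 55480 of 55573 genes, and unnamed genes took at most 0.0017% of a library. The members and gene lists were chosen with earlier results of these data known.

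Counts were normalized by TMM, filtered with filterByExpr and compared by the quasi-likelihood method in edgeR 4.0.16 (under R 4.3.3) without covariates and with Benjamini-Hochberg adjustment over 23592 genes. The standard error is the log2 fold change divided by the square root of F. TPM used the union of exons. Ratios were tested by exact permutation. Alternatives were other scalings, filters, DESeq2 1.42.0, the replicate number as a block and each library left out. Named genes were all 28 members, the 6 other synaptic genes with the smallest p, and the first gene of marker lists.

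The edgeR step was tested on simulated data with 200 genes changed 4-fold, at an adjusted p under 0.05. With the spread between libraries as estimated here, 68 of the 200 were recovered and 5 unchanged genes were called. With that spread fixed at a dispersion of 0.01, 194 were recovered and 11 unchanged genes were called. At the spread of these libraries, most changes of that size were thus missed. Depth is high for all members but Gabra6, so precision is set by the number and spread of the libraries.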

Additional observations from a re-analysis of the deposited data

How the results depend on the processing

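With each library left out in turn, members at an unadjusted p under 0.05 ranged from 1 to 24, members at an adjusted p under 0.05 from 0 to 16, and genes at an adjusted p under 0.05 from 0 to 4543. The highest of each came from the fit without UMBO replicate 1. The median log2 fold change of the members ranged from -1.18 to -0.19, and members whose groups did not overlap from 7 to 25, against 26.9 to 83.8% of all genes. The difference in the log2 ratio of Grin2a to Grin2b ranged from -0.61 to 0.011 and in the Gria2 share from -1.78 to 1.21 percentage points, and that in the log2 ratio of glutamate to GABA-A members from 0.034 to 0.052.

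Members at an unadjusted p under 0.05, 3 as reported, were 0 when scaled to pan-neuronal counts (16.1% of all genes), 5 with the DESeq2 Wald test (6.77%) and 9 with no low-count filter (10.1%). Genes at an adjusted p under 0.05, 0 with edgeR, were 39 with DESeq2, and the cause was not tested. With CPM in place of TPM the Gria2 share differed by 0.415 percentage points and the log2 ratio of glutamate to GABA-A members by -0.084, each of the opposite sign to the TPM value. Scaling to pan-neuronal counts gave a member median of -0.20. That scaling without UMBO replicate 2, added after the data had been examined, gave a median of -0.042, 1 member at an unadjusted p under 0.05, 10 that did not overlap (33.4% of all genes) and 22 genes at an adjusted p under 0.05.

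With the replicate block 14 members had an unadjusted p under 0.05 (26% of all genes) and 11 an adjusted p under 0.05 in edgeR (2337 genes, 9.91%), with Gabrb2 and Gabrd among the 11. No label says that a number marks a shared litter or day. Same-numbered libraries deviated from their group means with correlations of 0.621 (replicate 1) and 0.863 (replicate 2). The deviations of 2 UMBO libraries mirror each other, and fewer than 3 pairs exist, so the numbers do not establish pairs.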
